A study of Mus musculus with 6 samples.

Results

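A set of 9 genes of sterol sensing, uptake and efflux was followed in mouse spermatogonial stem cells with and without Bud31: Srebf1, Srebf2, Scap, Insig1, Insig2, Stard4, Npc1, Abca1 and Mylip. They were chosen by name for their place in the pathway, with earlier results of these data known. All 9 were found among the 51912 genes of the count table. RNA was sequenced by Smart-Seq2, which copies and amplifies whole transcripts from scarce RNA, in cells of C57BL/6J testes at postnatal day 4 sorted as THY1+ and c-KIT-, a surface pattern used to enrich germ line stem cells. There were 3 wild type libraries and 3 libraries with the genotype named Bud31-vKO, a knockout made by Cre-loxP of Bud31, which codes for a spliceosome protein. The labels do not give the Cre driver, the deleted exons, the number of cells or animals behind a library, or whether libraries came from separate animals, so p-values measure only the spread between these samples. The columns of the table are lettered C and T, which were read as wild type and Bud31-vKO by convention. Unless said otherwise, values are given in the order of libraries 1 to 3, wild type before Bud31-vKO.

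Cells hold their cholesterol steady by sensing it in the endoplasmic reticulum. SREBP2, the product of Srebf2, is a membrane-bound transcription factor that SCAP carries to the Golgi when sterols are low. There it is cut free and switches on genes of cholesterol synthesis and uptake, and Insig1. When sterols are plentiful, INSIG1 and INSIG2 hold the SCAP and SREBP complex back, and oxysterols activate the LXR receptors, which switch on Abca1 for efflux, Mylip to curb uptake, and Srebf1. In the testis, cholesterol serves membranes of dividing germ cells and, in Leydig cells, the making of androgens. In bulk libraries fewer cells of a type and less RNA per cell cannot be told apart.

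The libraries held 13240704 to 18744466 reads, and reads were found for 12464 to 22300 genes. Wild type library 3 and Bud31-vKO library 2 stood apart, with no read for 21% and 26.2% of the 15240 genes tested, against 0.846% to 5.12% in the other 4. Levels are in CPM, reads scaled to library size and by TMM factors. Bud31, whose exons overlap Ptcd1 on the opposite strand, stood at 137.8, 96.8 and 157.9 CPM, then 47.2, 67.6 and 80.4 CPM, with no overlap between the genotypes. Thy1 lay between 7.28 and 30.2 CPM and Kit, against which the cells were sorted, between 0.35 and 63.0 CPM. Of 9 pan-germ-cell markers, 7 had reads in every library, and Elavl2 and Rnf17 had none in Bud31-vKO library 2. The summed level of 6 stromal markers was 8391 to 21433 CPM, and the source of that RNA was not tested.

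None of the members passed the quasi-likelihood test of edgeR (0 of 9, Benjamini-Hochberg adjustment over 15240 genes), against a background of 0% of genes called higher and 0% called lower. All 9 passed the filter on low counts. A log2 fold change (Bud31-vKO over wild type) below 0 was found for 7 members and one above 0 for 2, with a median of -0.37, where 48.9% of all tested genes lay below 0 and their median was 0.02. The adjusted p was 0.9997 for each member, and 0 members had an unadjusted p under 0.05 by edgeR, where 1.08% of genes were higher and 1.82% lower at that level. DESeq2 called 0 members too, where it called 0.114% of genes higher and 0.2% lower. Mylip was the only member whose genotypes did not overlap, higher in Bud31-vKO, a pattern found for 4.76% of tested genes. No member was lower without overlap, a pattern found for 6.39%. The values of the members in the 6 libraries are given below in the order of their roles.

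**Figure D1:**
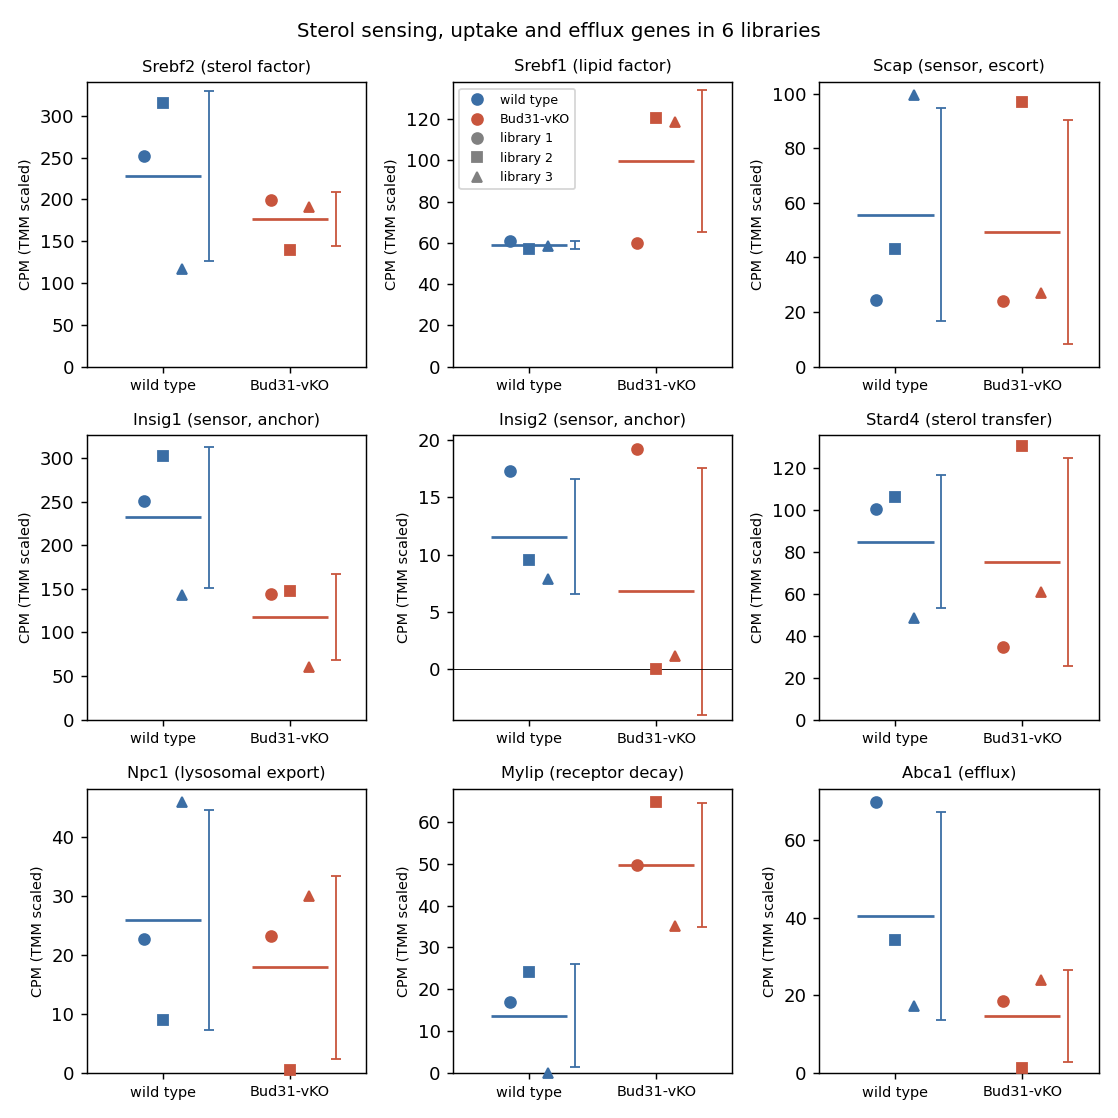
Level of each of the 9 genes in CPM scaled by TMM, in 3 wild type (blue) and 3 Bud31-vKO (red) libraries; symbols mark the library number, horizontal lines the mean and bars at the side the SD. Only for Mylip do the red points, 35.0 to 64.7 CPM, all lie above the blue points, 0 to 24.0 CPM.

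Srebf2, the factor that drives cholesterol synthesis, was among the more abundant members and did not pass the test. It stood at 251.5, 315.7 and 117.0 CPM, then 199.5, 139.4 and 190.8 CPM. The Bud31-vKO values lay inside the wild type range. The log2 fold change was -0.37 (SE 0.41, 95% interval -1.32 to 0.58). It was -0.66 without wild type library 3, the lowest of the wild type values, and -0.07 without wild type library 2, the highest. Srebf2 (ENSMUSG00000022463) spans 82147181 to 82205379 of chromosome 15 (plus strand, GRCm38), has up to 21 exons, and shares no exon sequence with another gene.

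The Srebf2 promoter is shown because it holds, alone among the members, the core of a sterol regulatory element, the DNA sequence that SREBP2 binds and by which the gene is known to respond to its own product. The letters searched were TCACNCCA on both strands, in the 250 bases before each RefSeq start of GRCm38.p6. They were chosen with these promoters in view, and they do not cover every element that SREBP2 binds. The stretch is chr15:82147067-82147154, on the plus strand, with the match in capitals, 162 to 155 bases before the start.
Srebf2: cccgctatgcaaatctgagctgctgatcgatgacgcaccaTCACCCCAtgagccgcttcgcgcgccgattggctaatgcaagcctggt
Of 32851 such windows, 3.67% hold this core, and of the 27025 genes with a window 4.2% do. Windows were found for 7 of the 9 members, and 1 of the 7 held it.

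Srebf1 encodes the sister factor SREBP1, which favours genes of fatty acid synthesis, and its log2 fold change was above 0 in each of the 15 alternative settings without passing the test in any. The level was nearly even in wild type (60.8, 57.2 and 58.6 CPM) and uneven in Bud31-vKO (60.01, 120.4 and 118.7 CPM). Bud31-vKO libraries 2 and 3 thus lay near 120 CPM while library 1 lay inside the wild type range. For this gene edgeR gave a log2 fold change of 0.76 (SE 0.43, 95% interval -0.23 to 1.75), with an unadjusted p of 0.113. Without Bud31-vKO library 1 the log2 fold change was 1.05, with an unadjusted p of 0.0424 and an adjusted p of 0.9997 by edgeR. The isoforms SREBP1a and SREBP1c start at different promoters and cannot be separated in counts per gene. Srebf1 (ENSMUSG00000020538) spans 60199089 to 60222581 of chromosome 11 (minus strand), and its exons overlap Rai1 on the opposite strand. Whether strand was used in counting is not given in the sources used here. Rai1 was counted at 28.9, 20.2 and 67.0 CPM, then 60.5, 42.8 and 86.1 CPM; its part in the Srebf1 values was not tested.

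The balance of the 2 factors can be read within each library, free of scaling. The log2 ratio of Srebf1 to Srebf2 reads was -2.05, -2.46 and -0.997 in wild type and -1.73, -0.21 and -0.69 in Bud31-vKO libraries 1 to 3. The means were -1.84 ± 0.76 and -0.88 ± 0.78 (SD, n = 3 each), with overlap between the genotypes. By a two-sided exact permutation test p was 0.2, where 3 libraries against 3 allow no p below 0.1, and 0.3 after adjustment over the 3 ratios compared.

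Scap, the sterol-sensing escort of SREBP, had widely differing levels within each genotype. It stood at 24.5, 43.1 and 99.7 CPM, then 24.2, 96.9 and 27.1 CPM. The highest values of both genotypes were those of the libraries with few genes detected, and the other 4 lay between 24.2 and 43.1 CPM. Its log2 fold change came to -0.18 (SE 0.78), and it turned to 0.58 when wild type library 3 was left out. With Bud31-vKO library 1 or 3 left out it turned to 0.18 or 0.12. Without Bud31-vKO library 2 it was -1.12. Scap (ENSMUSG00000032485) spans 110333288 to 110384950 of chromosome 9 (plus strand), with up to 23 exons.

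Insig1, which holds SCAP in the endoplasmic reticulum and is itself a target of SREBP2, was the member with the smallest p. It stood at 250.4, 302.2 and 142.9 CPM, then 144.1, 148.0 and 60.8 CPM. Wild type libraries 1 and 2 were the highest of all and Bud31-vKO library 3 the lowest, while wild type library 3 lay level with Bud31-vKO libraries 1 and 2. The means were 231.8 ± 81.3 and 117.6 ± 49.3 CPM (SD, n = 3 each), a 1.97-fold lower level in Bud31-vKO. On the log2 scale the difference was -0.98 (SE 0.46, 95% interval -2.03 to 0.08), with an unadjusted p of 0.0648 by edgeR. It stayed below 0 in all 15 alternative settings, from -1.42 without wild type library 3 and Bud31-vKO library 2 to -0.67 without Bud31-vKO library 3.

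Insig1 (ENSMUSG00000045294) spans 28071363 to 28078662 of chromosome 5 (plus strand), has at most 5 exons and shares no exon sequence with another gene. Its promoter is shown as that of the member with the smallest p. It holds no TCACNCCA, which says only that these letters are not in this window, but it holds an E-box, CACGTG, a palindrome that SREBP proteins are known to bind among other factors. The stretch is chr5:28071271-28071356 on the plus strand, with the E-box in capitals, 101 to 96 bases before the start.
Insig1: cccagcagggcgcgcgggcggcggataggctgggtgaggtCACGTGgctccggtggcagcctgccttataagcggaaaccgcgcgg
Of the windows of all genes, 6.02% hold an E-box of these letters, and 6.86% of genes with a window have one. Among the members so do Scap and Abca1.

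Insig2, the second anchor of SCAP, which in liver is known to be set apart from SREBP control, was counted at low and scattered levels. It stood at 17.3, 9.56 and 7.86 CPM, then 19.2, 0 and 1.11 CPM. Bud31-vKO library 1 was thus the highest of all 6, while libraries 2 and 3 lay below each wild type value. In Bud31-vKO library 2, where the gene had no read, the floor of 3 reads equals 0.214 CPM, and 37.0% of genes of like level had no read either. The fitted log2 difference was -0.77 (SE 2.01, 95% interval -5.42 to 3.88). It was -4.35 without Bud31-vKO library 1 and -0.17 without Bud31-vKO library 2. The gene (ENSMUSG00000003721) spans 121304353 to 121332589 of chromosome 1 (minus strand).

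The pair of anchors can also be compared within a library. The log2 ratio of Insig1 to Insig2 reads was 3.85, 4.98 and 4.18 in wild type and 2.90, 12.0 and 5.73 in Bud31-vKO libraries 1 to 3, with 0.5 added to each count. The value of 12.0 rests on the library with no Insig2 read. The exact two-sided permutation p was 0.6, also after adjustment over the 3 ratios.

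Stard4, which carries cholesterol between membranes and is a target of SREBP2, had overlapping levels in the genotypes and did not pass the test. It stood at 100.03, 105.8 and 48.3 CPM, then 34.5, 130.02 and 60.6 CPM. Bud31-vKO library 2 was the highest and Bud31-vKO library 1 the lowest of all. The log2 fold change was -0.17 (SE 0.59, 95% interval -1.54 to 1.19). It turned to 0.01 when wild type library 2 was dropped and to 0.20 when Bud31-vKO library 1 was. It was -0.82 lacking Bud31-vKO library 2, -0.43 lacking wild type library 3, and -1.10 lacking both, with an unadjusted p of 0.0454 by edgeR and an adjusted p of 0.753. Stard4 (ENSMUSG00000024378) spans 33199355 to 33213862 of chromosome 18 (minus strand).

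Npc1, the lysosomal membrane protein that passes on cholesterol taken up with lipoproteins, varied widely in both genotypes. It stood at 22.8, 9.06 and 46.0 CPM, then 23.3, 0.43 and 30.0 CPM. Apart from 6 reads in Bud31-vKO library 2, the Bud31-vKO values lay inside the wild type range. For this gene edgeR gave a log2 fold change of -0.53 (SE 1.36), and it turned to 0.18 when wild type library 3 was dropped, to 0.04 when Bud31-vKO library 2 was, and to 0.75 with neither. The gene (ENSMUSG00000024413) spans 12189692 to 12236400 of chromosome 18 (minus strand), and its exons overlap Rmc1 on the opposite strand. Rmc1 was counted at 25.8, 24.2 and 17.6 CPM, then 28.9, 30.3 and 44.4 CPM; its part in the Npc1 values was not tested.

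Mylip encodes an E3 ubiquitin ligase that curbs the uptake of lipoproteins and is switched on by LXR. It stood at 16.8, 24.0 and 0 CPM, then 49.6, 64.7 and 35.0 CPM, from 231, 435, 0, 679, 907 and 474 reads. Each Bud31-vKO library was above each wild type library. The means were 13.6 ± 12.3 and 49.8 ± 14.8 CPM (SD, n = 3 each), a 3.66-fold higher level in Bud31-vKO. Its log2 fold change came to 1.87 (SE 1.61, 95% interval -1.86 to 5.60), with an unadjusted p of 0.279 by edgeR. Without wild type library 3, where 7.30% of genes of like level had no read, it was 1.31 with an unadjusted p of 0.0927 by edgeR. It lay above 0 in all 15 alternative settings, from 1.06 without wild type library 3 and Bud31-vKO library 2 to 4.46 by limma-voom. Mylip (ENSMUSG00000038175) spans 45389742 to 45412022 of chromosome 13 (plus strand).

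Abca1, the transporter that hands cholesterol to apolipoproteins outside the cell and a classic target of LXR, had a log2 fold change below 0 without passing the test. It stood at 69.8, 34.3 and 17.4 CPM, then 18.6, 1.36 and 24.0 CPM. Wild type libraries 1 and 2 were above every Bud31-vKO library, and wild type library 3 lay among them. The means were 40.5 ± 26.8 and 14.6 ± 11.8 CPM (SD, n = 3 each), a 2.77-fold lower level in Bud31-vKO. On the log2 scale the difference was -1.47 (SE 1.12, 95% interval -4.07 to 1.13). It was -0.82 once wild type library 1 was dropped, -0.92 once Bud31-vKO library 2 was, and below 0 in all 15 alternative settings. The log2 ratio of Abca1 to Srebf2 reads averaged -2.60 ± 0.69 in wild type and -4.35 ± 1.998 in Bud31-vKO (SD, n = 3 each), with an exact two-sided permutation p of 0.2, 0.3 after adjustment.

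Macrophages, which use Abca1 for cholesterol efflux, were a source of RNA to check beside this gene. All 10 macrophage markers had reads in wild type library 1 and Bud31-vKO library 3, with sums of 224.6 and 168.0 CPM. The sums were 18.1 and 12.1 CPM in wild type libraries 2 and 3 and 59.9 and 13.3 CPM in Bud31-vKO libraries 1 and 2. In wild type library 3 and Bud31-vKO library 2, 8 and 9 of the 10 markers had no read, Csf1r, Adgre1 and C1qa among them. The sums of these 2 libraries were nearly all Cd68, at 11.9 and 13.3 CPM, against 12.5 CPM in wild type library 1. Wild type library 1 had the highest macrophage sum and the highest Abca1, and Bud31-vKO library 3 the highest of both within its genotype. Across the genotypes the order differed. Wild type library 2 had Abca1 at 34.3 CPM with a sum of 18.1 CPM, and Bud31-vKO library 1 had 18.6 CPM with 59.9 CPM. The part of macrophage RNA in the Abca1 values was not tested.

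Abca1 (ENSMUSG00000015243) spans 53030787 to 53159895 of chromosome 4 (minus strand) and has up to 50 exons, the most of any member. Its promoter and that of Srebf1 are shown together because both hold the response element of LXR, a direct repeat of a half-site. The search, on both strands, was for GGTNA, then 5 bases of any kind, then GGTCA, chosen with these promoters in view, and the stretches below carry them on the strand opposite to the gene. The Abca1 stretch is chr4:53159908-53160002 and the Srebf1 stretch, before a start inside the gene, is chr11:60210599-60210693. Both are written along the minus strand with the match in capitals, 67 to 53 and 182 to 168 bases before the start.
Abca1: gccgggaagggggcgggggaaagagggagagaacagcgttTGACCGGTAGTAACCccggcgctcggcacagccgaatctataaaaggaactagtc
Srebf1: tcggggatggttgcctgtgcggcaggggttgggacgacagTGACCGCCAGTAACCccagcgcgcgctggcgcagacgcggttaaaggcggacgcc
Only 0.177% of all windows and 0.189% of genes with a window hold these letters, and among the 7 members with a window only these 2 genes do. The log2 fold changes of the 2 genes were -1.47 and 0.76, of opposite sign.

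**Figure D2:**
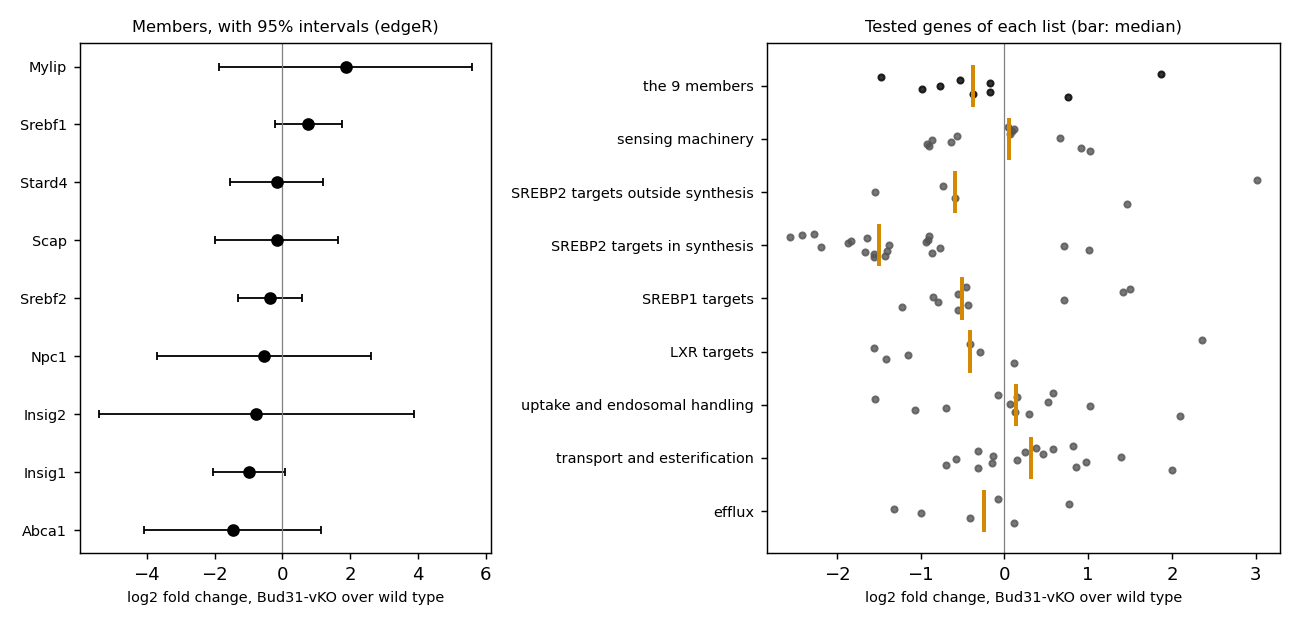
Left, log2 fold change of Bud31-vKO over wild type for each member with its 95% interval from edgeR; all 9 intervals include 0. Right, log2 fold changes of the tested genes of each list as points with the median as a bar, from -1.49 for SREBP2 targets in synthesis to 0.31 for transport and esterification.

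Among the 9 members, those that SREBP2 is known to switch on (Insig1, Stard4, Npc1 and Srebf2 itself) had log2 fold changes of -0.98, -0.17, -0.53 and -0.37. A further 5 SREBP2 targets outside synthesis had a median of -0.59, with 3 below 0 and 2 above, against 48.9% of tested genes below 0. With library 2 of wild type left out the median was -0.13, and with library 2 of Bud31-vKO left out -0.25. None of these 5 passed the test, had an unadjusted p under 0.05 or was free of overlap between the genotypes. Tmem97, an endoplasmic reticulum protein that binds NPC1, measured 92.8 ± 33.9 and 55.8 ± 14.3 CPM (SD, n = 3 each). Lpin1, a phosphatidate phosphatase, measured 170.7 ± 82.7 and 113.4 ± 61.8 CPM (SD, n = 3 each).

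The synthesis genes under the same factor are given for comparison. Of 20 SREBP2 targets in synthesis, 18 lay below 0 with a median of -1.49, and 14 were lower without overlap between the genotypes, against 6.39% of tested genes. By edgeR 0 passed the test and 7 were lower at an unadjusted p under 0.05, against 1.82% of tested genes. DESeq2 called only Hmgcs1 (adjusted p = 6.37e-06). The list was chosen with earlier results of these data known, so these counts are a description and not a test. Hmgcs1, which makes HMG-CoA, measured 218.0 ± 39.98 and 45.0 ± 10.3 CPM (SD, n = 3 each). Sqle and Cyp51, of the later steps, measured 161.5 ± 58.1 against 51.1 ± 14.9 CPM and 132.8 ± 39.1 against 45.2 ± 7.53 CPM (SD, n = 3 each). The summed level of the 20 genes was 1420 to 1979 CPM in wild type and 587 to 632 CPM in Bud31-vKO. The summed level of the 9 members was 538 to 901 CPM in wild type and 548 to 701 CPM in Bud31-vKO, and overlapped. The difference between the 2 lists was not tested.

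The ratio of Hmgcs1 to Insig1 reads was singled out after its values were seen and was not tested. It was 0.81, 0.87 and 1.32 in wild type and 0.32, 0.23 and 0.91 in Bud31-vKO libraries 1 to 3. Bud31-vKO libraries 1 and 2 were the lowest, and library 3 lay inside the wild type range.

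Likeness of pattern was measured as the root mean square difference of log2 CPM over the 6 libraries, each gene centred on its own mean, against 15239 other tested genes. Cyc1, of the respiratory chain, was among the named genes nearest to Insig1, at 0.21, where the median over all genes was 1.45. The nearest named genes of the other 8 members were Cops2 for Srebf2 at 0.12, Ahctf1 for Srebf1 at 0.15, Tmem206 for Scap at 0.11 and Ndc80, a kinetochore gene, for Stard4 at 0.09. They were Cyb561d2 for Insig2 at 0.29, Cyp2d22 for Npc1 at 0.23, Clock, of the circadian clock, for Abca1 at 0.33, and Glrx, a glutaredoxin, for Mylip at 0.20. The second nearest were Mrto4, Cdc25a, Zfp597, Supt16, H2-DMa, Slc18a2, Trim71 and Rnf122, in the same order. Among the members, Srebf2 and Insig1 were the nearest pair at 0.64, and Insig2 and Mylip the farthest at 4.53. With 6 libraries and 15239 genes such neighbours describe these libraries only.

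The members differed in how much they varied. The root mean square spread of log2 CPM over the 6 libraries was 0.48 for Srebf1 and for Srebf2, a spread above that of 15% and 15.2% of tested genes. It was 0.68 for Stard4, 0.74 for Insig1 and 0.88 for Scap, above 28.9%, 32.5% and 39.5% of genes. Abca1, Npc1, Insig2 and Mylip had 1.72, 2.12, 2.56 and 3.05, above 58.0%, 66.4%, 79.7% and 93.8% of genes. The 4 members that varied most also had the 4 lowest mean levels, and each had its lowest value in wild type library 3 or Bud31-vKO library 2.

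Per length, Insig1 had the highest mean of the members in both genotypes, though in Bud31-vKO it was above Srebf2 in only 2 of 3 libraries. In wild type it stood at 75.0 ± 26.3 CPM per kb of exon (SD, n = 3), followed by Srebf2 at 31.7 ± 14.1, Stard4 at 15.2 ± 5.67 and Srebf1 at 10.4 ± 0.32. Scap had 7.49 ± 5.26, Mylip 4.21 ± 3.81, Abca1 3.91 ± 2.59, Insig2 3.33 ± 1.45 and Npc1 2.29 ± 1.65 CPM per kb. Only the step from Insig1 to Srebf2 had no overlap between the ranges of neighbours. Each other step overlapped, although Srebf2 was above Stard4 in 3 of 3 libraries. In Bud31-vKO the order was Insig1 at 38.0 ± 15.9, Srebf2 at 24.6 ± 4.52, Srebf1 at 17.7 ± 6.10, Mylip at 15.4 ± 4.59 and Stard4 at 13.4 ± 8.84 CPM per kb. Below them came Scap at 6.64 ± 5.53, Insig2 at 1.95 ± 3.11, Npc1 at 1.58 ± 1.37 and Abca1 at 1.41 ± 1.14 CPM per kb, and all neighbours overlapped.

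**Figure D3:**
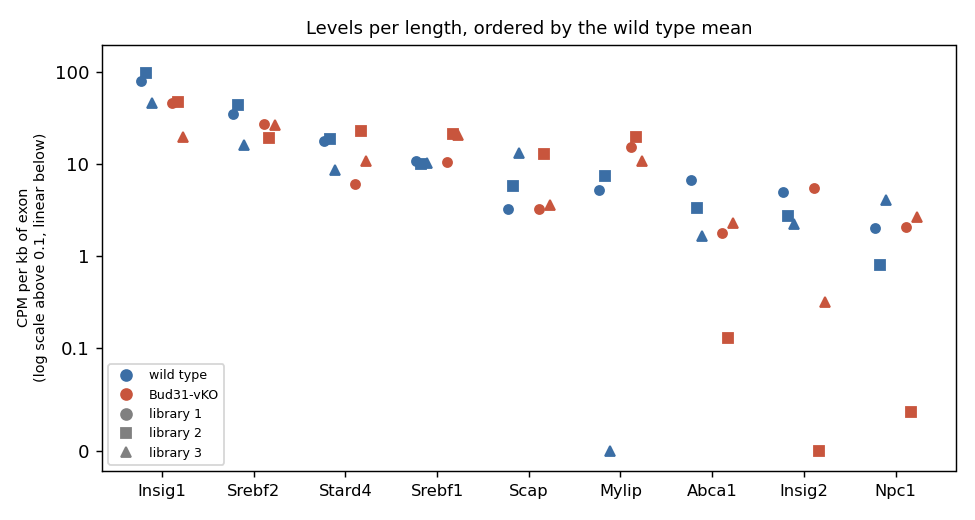
Level per length, in CPM per kb of the union of a gene's exons, of the 9 genes in each library, ordered by the wild type mean; the axis is logarithmic above 0.1 and linear below. Insig1 lies highest in wild type, at 46.2 to 97.7. In Bud31-vKO it has the highest mean, spans 19.7 to 47.8 and lies below Srebf2 in library 3. The lowest points are those of Mylip in wild type library 3 and of Insig2, Npc1 and Abca1 in Bud31-vKO library 2.

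LXR targets had log2 fold changes on both sides of 0, and none passed the test. Among the members Abca1 had a log2 fold change of -1.47, and Mylip and Srebf1 had 1.87 and 0.76. Of 10 further LXR targets 7 were tested, 5 of them below 0 and 2 above, with a median of -0.41 and 0 past the test. That median was -0.07 when Bud31-vKO library 1 was left out, -0.17 when wild type library 3 was, and -0.18 when Bud31-vKO library 2 was. Lpcat3, an enzyme of phospholipid remodelling, was lower in Bud31-vKO without overlap, at 89.5 ± 5.98 against 33.5 ± 13.6 CPM (SD, n = 3 each), with an unadjusted p of 0.0205 and an adjusted p of 0.9997 by edgeR. It was the 1 tested gene of the 7 with that pattern, which 6.39% of all tested genes had. Arl4c, a small GTPase, measured 5.25 ± 7.52 and 27.03 ± 24.7 CPM, and Smpdl3a, a phosphodiesterase, 7.27 ± 2.80 and 2.47 ± 2.78 CPM (SD, n = 3 each). Abcg1, which works beside Abca1 in efflux, measured 48.2 ± 15.8 and 36.2 ± 28.3 CPM, and Apoe, an acceptor of cholesterol, 107.6 ± 16.1 and 116.3 ± 85.9 CPM (SD, n = 3 each). Of the receptors, Nr1h2 (LXRbeta) measured 171.5 ± 66.2 and 176.7 ± 14.1 CPM (SD, n = 3 each), while Nr1h3 (LXRalpha) had no read in 3 of the 6 libraries and was not tested.

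Of 13 further genes of the sensing machinery, 12 were tested, 7 of them above 0 and 5 below, with a median of 0.05 and 0 past the test. That median changed sign with the libraries used. It was -0.24, -0.19 and 0.38 when wild type library 1, 2 or 3 was left out, and -0.46, 0.30 and -0.14 when Bud31-vKO library 1, 2 or 3 was. Mbtps1, the protease that makes the first cut in SREBP, measured 129.5 ± 22.02 and 87.6 ± 29.8 CPM, and Mbtps2, which makes the next, 15.9 ± 6.73 and 17.3 ± 16.3 CPM (SD, n = 3 each). Pgrmc1, a membrane haem protein reported to bind INSIG1, was higher in Bud31-vKO without overlap, at 389.0 ± 98.6 against 789.9 ± 431.0 CPM (SD, n = 3 each), with an unadjusted p of 0.0428 by edgeR. Erlin1, an endoplasmic reticulum protein known to bind SREBP, SCAP and INSIG1, was lower without overlap, at 131.9 ± 25.0 against 69.5 ± 26.7 CPM (SD, n = 3 each), with an unadjusted p of 0.0615 by edgeR. The adjusted p of both was 0.9997. Of the 12 genes tested, 1 was thus higher and 1 lower without overlap, against 4.76% and 6.39% of all tested genes.

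The remaining lists described uptake, transport, efflux and the targets of SREBP1, and 0 genes passed the test in any of them. Of 12 genes of uptake and endosomal handling, 8 lay above 0, with a median of 0.14. It was 0.02 and 0.21 when Bud31-vKO library 1 or 2 was left out, and 0.37 and 0.29 when wild type library 1 or 2 was. Lrp1, a large endocytic receptor, was higher without overlap at 170.1 ± 17.7 against 253.3 ± 50.1 CPM, a pattern found for 4.76% of tested genes. Npc2, the partner of NPC1, measured 365.7 ± 101.3 and 448.5 ± 49.2 CPM (SD, n = 3 each for both genes). Scarb2, a lysosomal membrane protein, measured 74.4 ± 26.6 and 106.4 ± 50.0 CPM (SD, n = 3 each). Of 16 genes of transport and esterification, 10 lay above 0, with a median of 0.31. It was 0.07 when wild type library 2 was left out, and 0.02, 0.18 and 0.51 when Bud31-vKO library 1, 2 or 3 was. Gramd1a, which moves cholesterol from the plasma membrane, measured 46.8 ± 54.2 and 186.6 ± 132.8 CPM (SD, n = 3 each), with overlap. Its relative Gramd1c measured 21.1 ± 9.06 and 55.2 ± 68.01 CPM, and Osbpl9, a lipid carrier of the oxysterol-binding family, 137.8 ± 69.8 and 91.99 ± 33.8 CPM (SD, n = 3 each). Of 6 efflux genes tested, 4 lay below 0, with a median of -0.25. It was -0.05 when wild type library 3 was left out, and -0.09 and -0.50 when Bud31-vKO library 1 or 2 was. Abca2 and Abca3, transporters of the same family as Abca1, measured 48.96 ± 59.7 against 19.6 ± 24.8 CPM and 15.1 ± 4.51 against 7.58 ± 11.9 CPM (SD, n = 3 each). Of 10 SREBP1 targets, 7 lay below 0, with a median of -0.51, and 2 were lower without overlap, where 48.9% of tested genes lay below 0 and 6.39% were lower without overlap. The median was -0.28 when Bud31-vKO library 1 was left out. Of these Fasn, the fatty acid synthase, measured 380.2 ± 83.2 and 210.3 ± 39.8 CPM, with an unadjusted p of 0.0224 by edgeR, and Acaca, which feeds it, 84.2 ± 16.7 and 36.02 ± 17.9 CPM (SD, n = 3 each). Me1, the malic enzyme, stood at 28.0 ± 18.5 and 74.7 ± 39.7 CPM (SD, n = 3 each), with overlap.

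Marker sums of cell types moved beside these values. The summed level of 9 pan-germ-cell markers was 3104 to 3701 CPM in wild type and 1836 to 2407 CPM in Bud31-vKO, and that of 12 markers of undifferentiated spermatogonia 1122 to 1288 and 564 to 902 CPM, both without overlap. Single markers differed. Mael was lower in each Bud31-vKO library, at 107.2 to 184.8 against 369.7 to 680.1 CPM. Piwil2, at 279.7 to 325.8 CPM in wild type, was higher in Bud31-vKO libraries 2 and 3, at 398.5 and 397.7 CPM. Gfra1 was highest in Bud31-vKO library 2, at 239.6 CPM. T and natural killer cell markers summed to 11.6 to 85.2 CPM in wild type and 128.7 to 551.6 CPM in Bud31-vKO, the highest in library 2. Most of that highest sum was Ptprc, at 328.0 CPM, and Cd3e and Cd2 had no read there. Ptprc overlapped between the genotypes, at 18.8 CPM in Bud31-vKO library 1 but 68.1 CPM in wild type library 3. Klrk1, Gzma and Cd69 were higher in each Bud31-vKO library, and the remaining markers of this list overlapped. Sertoli markers were highest in Bud31-vKO library 1, at 1670 CPM, against 132 to 439 CPM in the other 5. Endothelial markers lay between 0.12 and 189.7 CPM, peritubular myoid markers between 85.0 and 654.1 CPM, and erythroid markers between 1.07 and 216.4 CPM. Of 7 Leydig markers, the sum was 0 to 20.6 CPM, and Cyp17a1 and Insl3 had no read in 5 of the 6 libraries. The part of these cells in the members' values was not tested.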

How the data were processed

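For 3 wild type and 3 Bud31-vKO libraries the authors deposited unscaled counts of reads, keyed by Ensembl identifier. The submitters' processing notes name bcl2fastq and the build mm10; which aligner, counter, annotation release and strand setting were used is not given in the sources used here. Symbols, coordinates and exon lengths came from GENCODE M21 (GRCm38), and promoters from RefSeq (GRCm38.p6). Genes were filtered with filterByExpr of edgeR 4.0.16 (minimum count 10, total 15), scaled by TMM and compared with its quasi-likelihood test, without covariates, at an adjusted p of 0.05. The common biological coefficient of variation was 119%. Standard errors were taken as the fold change over the root of F. Log2 CPM used a prior count of 2. DESeq2 1.42.0, limma-voom 3.58.1, 3 scalings, 2 filters, a block for the library number, each library left out in turn, and 4 libraries without the 2 that stand apart were the alternatives. A floor of 3 reads covers counting error only. The fit was also run on simulated data, and the outcome is not given here. Members and lists were chosen with earlier results of these data known. Named were the members, Bud31, Thy1, Kit, the 3 genes of each list with the smallest p, and the 2 nearest genes of each member; further genes were added for their role after values were seen. Analyses ran in R 4.3.3 and Python 3.11.15 with matplotlib 3.10.9. Some genes that the naming rule or the lists hold are not reported here by name.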

Additional observations from a re-analysis of the deposited data

How the results depend on the processing

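Of 135 member values under the 15 alternatives, 127 kept their direction, 8 turned and 0 passed the test. Leaving out each library in turn gave log2 fold changes from -1.12 to 0.58 for Scap, -0.82 to 0.20 for Stard4 and -1.13 to 0.18 for Npc1, which was 0.75 in the 4 libraries without wild type 3 and Bud31-vKO 2. The cause was not tested. For Insig2 the range was -4.35 to -0.17, and DESeq2 gave it no p. Over all genes, 5 were called higher and 2 lower with no filter on low counts, and 17 higher and 30 lower by DESeq2; every other alternative called 0. With the library number as a replicate block the test called 0 genes higher, 0 lower and 0 members, against 165 higher and 278 lower at an unadjusted p under 0.05 without it and 150 and 262 with it. Same-numbered libraries correlated at 0.19, 0.04 and -0.08 in their deviations from the group means, and wild type library 3 correlated best with Bud31-vKO library 2 (0.11). The labels do not tie libraries of the same number together, and these correlations did not show a pairing in every pair. The median of the synthesis list ran from -1.61 to -1.27 and that of the sensing list from -0.46 to 0.45. The medians ran from -0.88 to -0.13 for SREBP2 targets outside synthesis, -0.75 to -0.28 for SREBP1 targets, -0.68 to -0.07 for LXR targets, 0.02 to 0.38 for uptake, 0.02 to 0.51 for transport and -0.50 to -0.05 for efflux. The lowest libraries of Insig2, Npc1, Abca1 and Mylip held 0, 6, 19 and 0 reads. These were wild type library 3 and Bud31-vKO library 2, which were not the shallowest, with 17131113 and 14507038 reads in all.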
